A study of Mus musculus with 6 samples.

Results

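Natural killer (NK) cells are innate lymphocytes that pass through ordered stages of maturation, and a small set of transcription factors drives or restrains that course. The 10 genes described here encode such factors: the T-box activators Eomes and Tbx21 (T-bet), the zinc-finger repressors Zeb1, Zeb2, Prdm1 (Blimp-1) and Zfp683 (Hobit), the interferon regulatory factors Irf2 and Irf8, the repressor Bach2, and the forkhead factor Foxo1. They were taken by name, by the gene features and Entrez identifiers listed with the peaks. Of the 10, 9 were listed with an Entrez identifier and 1, Zfp683, was matched by position alone. They were read against 21764 protein-coding genes.

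The cells were splenic NK cells activated with IL-2, a cytokine that expands them, at 500 ng/mL for 5 days. KO cells came from Tcf7-/- mice, of the labelled strain B6.129 Tcf7Tm1Cle, and WT cells from Tcf7+/+ mice labelled B6, so genotype and strain background cannot be told apart. Tcf7 encodes Tcf1, a DNA-binding factor of the Tcf/Lef family. Chromatin immunoprecipitation (ChIP) with sequencing was done for Tcf1 and for H3K4me3 (trimethylation of histone H3 at lysine 4, found at active promoters), and a peak list of 1 library per antibody and genotype was analysed. The number of animals behind a library is not given in the sources used here, and no difference below has a replicate check or a p-value. The study is about how Tcf1 bears on NK cell development and granzyme expression, and the comparison here asks where its loss goes with a changed mark at the maturation factors.

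In mouse NK cells, Eomes and T-bet are known to act in turn, Eomes in establishing conventional NK cells and T-bet in their late maturation and exit to the blood. Zeb2 acts downstream of T-bet, Blimp-1 adds to late maturation, and Foxo1 and Bach2 are known to hold cells in earlier states. Promoter H3K4me3 usually forms a narrow peak at a transcription start site (TSS), and in many cell types wide domains of the mark are known at genes of cell identity.

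The H3K4me3 lists held 11074 peaks with 7507763 tags in KO and 13771 peaks with 6635272 tags in WT, where a tag is a read counted in a peak. The sequencing depth behind these sums is unknown. The median fold enrichment of a peak over the background of the peak caller was 18.4 in KO and 30.8 in WT. The Tcf1 lists held 5139 peaks in KO and 866 in WT, and no peak of either had a false discovery rate (FDR) of 1% or less. The promoters of all 8 NK cell markers carried H3K4me3 in both genotypes (10778 tags in sum in KO and 11807 in WT). Of that sum Tyrobp, an adaptor of activating receptors, held 614 tags in KO and 2581 in WT, but its ratio on merged regions was 0.07. Klrd1 (CD94) held 236 tags in KO and 452 in WT, a log2 ratio of -1.20 centred on the median gene, but 0.23 per kb of peak. Of 8 B cell markers, Pax5, Ebf1, Cd79a, Cd79b and Ms4a1 among them, 0 had an H3K4me3 peak at a start in KO or in WT. Inside the gene, away from its starts, 1 of the 8 had a peak in KO and 2 in WT. Of 8 myeloid markers 0 were marked in KO and 1 in WT (Cd14, 95 tags), and Csf1r, Lyz2 and Spi1 were at 0 in both. Of 8 T cell markers 0 were marked in KO and 2 in WT (99 tags in sum, at Cd3e and Cd3d), while Cd4, Cd8a and Cd3g were at 0 in both. Of 4 erythroid markers 1 was marked in KO (227 tags) and 2 in WT (320 tags in sum). The Y-linked genes Kdm5d, Uty, Eif2s3y and Ddx3y, named after their values were seen, had 48 to 116 tags each in KO and no peak in WT. The labels do not give the sex of the mice, so sex and genotype may not be separate here. The part of these differences in the results below was not tested.

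The promoters are shown first, because the mark sat over nearly all of them. RefSeq (GRCm38.p6) gives 12 promoters for 8 of the genes. The H3K4me3 peaks of both genotypes covered 11 of the 12, and the exception was the promoter inside Bach2. The 250 bases before the TSS are printed 5′ to 3′ for 6 of them, chosen to run from CpG-poor to CpG-rich and to include the uncovered one, with CpG dinucleotides in capitals.
Eomes, chr9:118477939-118478188, plus strand: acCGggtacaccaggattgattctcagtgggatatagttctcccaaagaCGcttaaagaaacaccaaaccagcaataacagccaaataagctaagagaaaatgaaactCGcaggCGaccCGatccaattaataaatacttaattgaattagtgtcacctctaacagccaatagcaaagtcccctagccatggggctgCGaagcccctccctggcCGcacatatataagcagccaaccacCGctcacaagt
Tbx21, chr11:97115332-97115581, minus strand: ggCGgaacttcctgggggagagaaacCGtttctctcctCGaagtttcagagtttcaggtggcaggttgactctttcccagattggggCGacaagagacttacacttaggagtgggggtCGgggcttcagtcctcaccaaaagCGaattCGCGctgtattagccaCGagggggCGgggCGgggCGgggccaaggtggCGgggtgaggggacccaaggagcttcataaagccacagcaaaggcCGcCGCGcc
Zeb2, chr2:45110278-45110527, minus strand: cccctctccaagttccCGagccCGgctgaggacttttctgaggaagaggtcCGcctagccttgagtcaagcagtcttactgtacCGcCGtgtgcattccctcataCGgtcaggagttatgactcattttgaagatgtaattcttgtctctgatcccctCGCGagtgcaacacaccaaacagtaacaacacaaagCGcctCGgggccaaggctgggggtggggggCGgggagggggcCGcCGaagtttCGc
Prdm1, chr10:44458749-44458998, minus strand: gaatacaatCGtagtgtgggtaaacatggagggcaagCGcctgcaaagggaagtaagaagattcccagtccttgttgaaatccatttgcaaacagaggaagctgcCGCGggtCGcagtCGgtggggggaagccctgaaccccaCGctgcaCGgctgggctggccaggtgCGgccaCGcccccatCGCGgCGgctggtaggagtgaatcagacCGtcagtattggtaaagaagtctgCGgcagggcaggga
Irf8, chr8:120736108-120736357, plus strand: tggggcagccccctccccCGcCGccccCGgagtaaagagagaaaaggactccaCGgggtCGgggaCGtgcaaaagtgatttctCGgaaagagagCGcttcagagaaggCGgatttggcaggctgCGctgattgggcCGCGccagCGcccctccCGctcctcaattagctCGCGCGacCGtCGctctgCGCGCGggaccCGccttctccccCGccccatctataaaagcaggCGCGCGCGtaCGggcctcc
Bach2, chr4:32417185-32417434, plus strand: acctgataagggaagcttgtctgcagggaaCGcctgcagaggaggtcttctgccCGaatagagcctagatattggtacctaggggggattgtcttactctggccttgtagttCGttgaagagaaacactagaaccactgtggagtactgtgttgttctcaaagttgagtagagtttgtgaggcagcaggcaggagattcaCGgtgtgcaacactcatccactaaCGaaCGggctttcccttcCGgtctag

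CpG content did not separate the marked promoters of these genes from the unmarked one. Over 12477 promoters under an H3K4me3 peak of either genotype the median was 17 CpGs in 250 bases, against 3 over 20330 promoters under none. The promoter of Irf8 held 29 CpGs and that of Foxo1 held 20, both above that median. Eomes, whose mark was among the strongest of the set, held 8, close to the 7 of the unmarked Bach2 promoter. Tbx21 held 16, Prdm1 held 15, and the 4 promoters of Zeb2 held 6 to 14.

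Letters of known motifs were searched on both strands of the same windows. The Tcf/Lef core CTTTGAA or CTTTGAT was in 0 of the 12 windows, and 7.48% of all 32807 promoters held it. The T-box core AGGTGTGA was likewise in 0 of the 12, against 1.12% of all promoters. The E-box CAGGTG, of the kind Zeb1 and Zeb2 bind, was found in 3 windows, those of Tbx21, Prdm1 and the inner promoter of Irf8, and 17.2% of all promoters held it. The letters TATAAA began 31 bases before the outer TSS of Irf8 and were in 12.4% of all promoters. Among promoters under an H3K4me3 peak the shares were 4.69% for Tcf/Lef, 0.585% for T-box, 15% for CAGGTG and 5.36% for TATAAA. None of these motifs overlapped another in the windows of the 12. A match is a string of letters, not a bound site.

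Every gene of the set but Zfp683 was marked at a TSS in both genotypes, and most carried far more of the mark than a typical promoter. A gene was called marked where an H3K4me3 peak lay over an annotated TSS or up to 1 kb from it. Of the 10 genes 9 were marked in KO, against 48.1% of the 21764 genes, and 9 in WT, against 53.9%. The same 9 were marked in both genotypes, against 47.9% of genes, and 0 in 1 genotype alone, against 0.17% of genes in KO alone and 6.02% in WT alone. In cells measured in bulk, a mark in fewer cells and a weaker mark in each cell cannot be told apart. The bars of tags and width show the set beside the median marked gene, which held 683 tags over 2242 bp in KO and 507 tags over 2232 bp in WT.

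**Figure D1:**
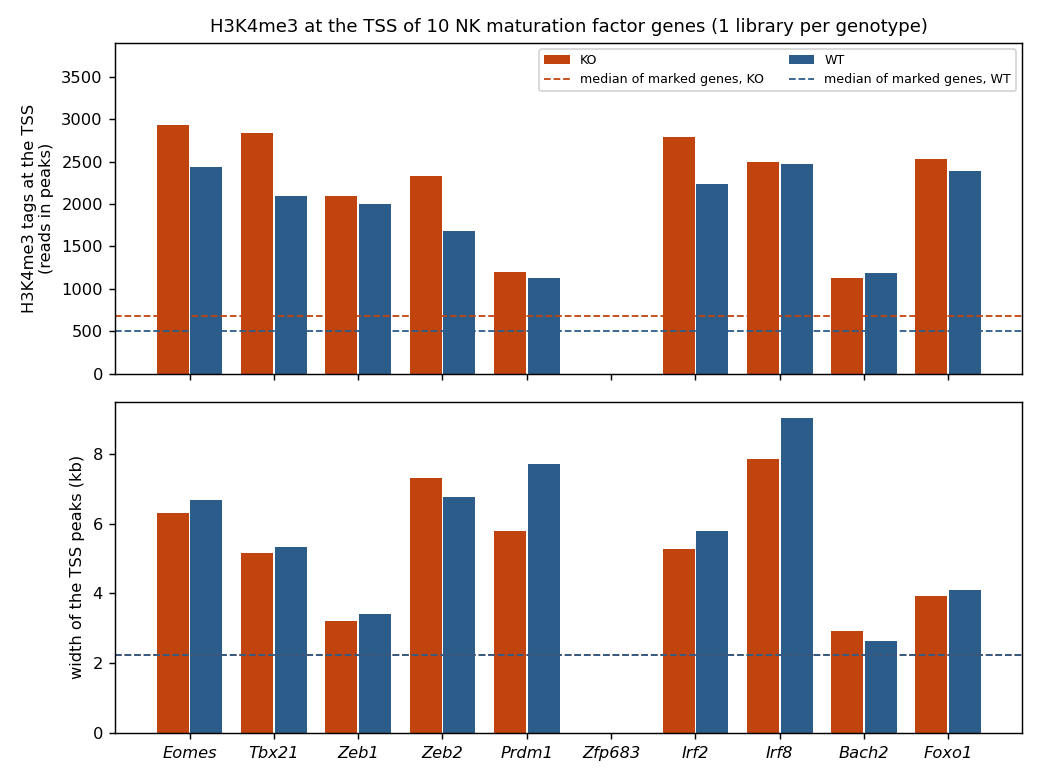
H3K4me3 tags (reads in peaks, upper panel) and summed width in kb (lower panel) of the peaks within 1 kb of an annotated TSS, for each gene in KO and WT, with 1 library per genotype and no error bar. Dashed lines give the median of all marked genes in each library. All 9 marked genes lie above the median tags of both libraries, and Zfp683 has no peak at a TSS.

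The T-box factors came first by tags in KO. Eomes (chromosome 9, 118478186 to 118486132, plus strand) had 2930 tags over 6311 bp in KO and 2434 tags over 6670 bp in WT. Among marked genes it stood at percentile 99.4 of tags in KO and 99.2 in WT. Its peak, from 118476269 to 118482579 in KO and from 118476162 to 118482831 in WT, covered the promoter and the first part of this short gene. Tbx21 (chromosome 11, 97098007 to 97115331, minus strand) had 2840 tags over 5165 bp in KO and 2092 tags over 5319 bp in WT. KO thus held more tags at nearly the same width, as the KO peak ended 168 bp short of the WT peak on the upstream side and 14 bp beyond it inside the gene.

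Since KO held a median of 1.20 times the WT tags over all genes marked in both, ratios are given as log2 of KO over WT minus that median of 0.26. They carry 95% intervals for Poisson counting alone, and copies made by PCR were not identified. Eomes came to 0.0037 (-0.07 to 0.08), an interval that spans the median gene at 0. Tbx21 came to 0.18 (0.10 to 0.26), higher in KO than the median gene by more than counting error. Both lay in the middle 95% of all genes, which ran from -0.83 to 0.42. The deposited fold enrichment went the other way. It was lower in KO at 9 of the 9 marked genes (13.6 to 31.1 in KO, 34.5 to 104.4 in WT, the highest TSS peak of each gene), as it was at 97.8% of all genes marked in both. The part of this difference in background in the ratios was not tested.

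Zeb2, a repressor that promotes late maturation, had the highest ratio of the set by summed tags. The gene (chromosome 2, 44983512 to 45117442, minus strand) has RefSeq promoters at 45117442, 45113279, 45113253 and 45110277, and its mark lay in a pair of peaks. The inner peak, over the 3 starts farther into the gene, held 2018 tags over 5439 bp in KO and 1416 tags over 5179 bp in WT, a ratio of 0.25 (0.15 to 0.35). The outer peak, over the first start, held 316 tags in KO and 262 in WT, a ratio of 0.0065 (-0.23 to 0.24). Most of the tags of Zeb2 thus lay at the inner starts in both genotypes. The intervals of the inner and outer ratios overlap, and per kb the inner peak came to 0.12 and the outer to -0.29, so a difference between them was not shown. Summed over both peaks the gene came to 0.21 (0.12 to 0.30), but to 0.04 per kb, since its KO peaks were wider in sum (7300 bp in KO, 6760 bp in WT).

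Zeb1, the relative of Zeb2 that acts in the opposite direction in mouse T cells, had a narrow and dense peak. It held 2096 tags over 3205 bp in KO and 2002 tags over 3408 bp in WT (gene on chromosome 18, 5591327 to 5775468, plus strand). At 654.0 tags per kb in KO and 587.4 in WT, it was the densest of the set in both libraries. Its ratio was -0.20 (-0.29 to -0.11), and -0.17 per kb. A weak peak 11.5 kb into the gene in KO and 11.6 kb in WT had 69 tags in KO and 59 in WT.

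Prdm1 carried the mark at a pair of distant starts, and its main peak was narrower in KO with nearly the same tag count before centring. RefSeq gives the gene (chromosome 10, 44437174 to 44528558, minus strand) an outer 5′ end at 44528558 and the Ensembl feature gives 44528501, but the RefSeq promoter lies at 44458748. The peak at 44458748 held 966 tags over 4233 bp in KO and 964 tags over 5842 bp in WT. Its ratio was -0.26 (-0.39 to -0.13), but 0.15 per kb. In KO it stopped 1552 bp short of the WT peak on the downstream side. The peak just upstream of the outer 5′ end held 228 tags in KO and 162 in WT, a ratio of 0.23 (-0.06 to 0.52). A peak 10.1 kb into the gene from the inner start in KO and 9.99 kb in WT held 141 tags in KO and 179 in WT, a ratio of -0.61 (-0.93 to -0.29). For the starts together the ratio was -0.18 (-0.30 to -0.06), but 0.18 per kb, so the direction of the difference at Prdm1 depended on the measure.

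**Figure D2:**
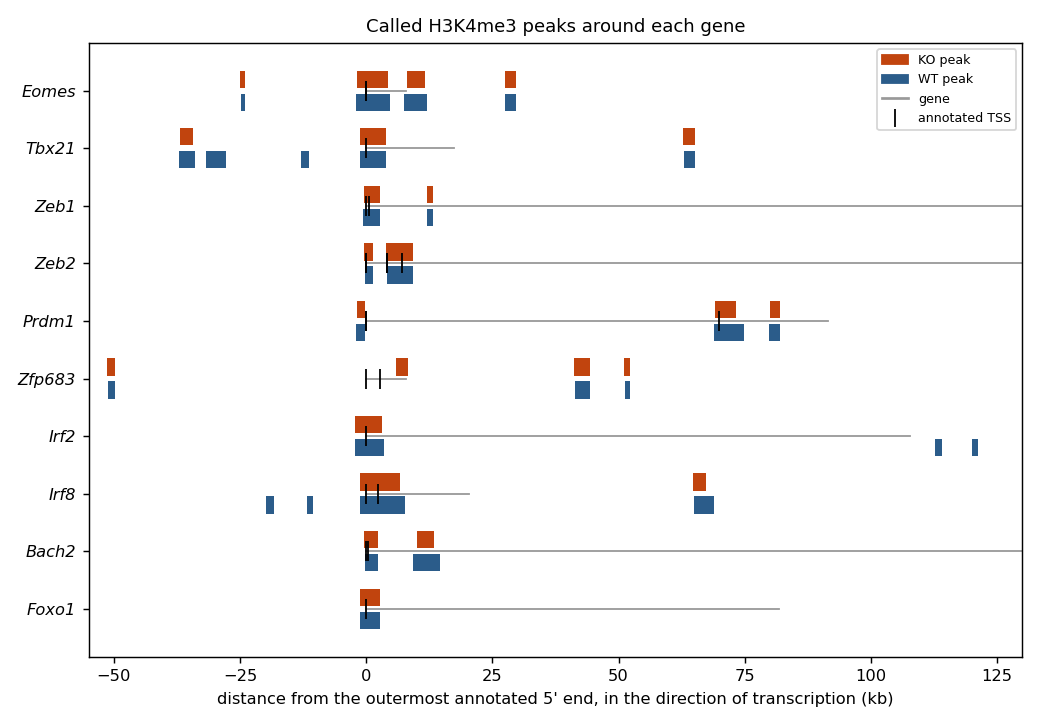
Called H3K4me3 peaks of KO (orange, upper bar of each row) and WT (blue, lower bar) around each gene, against the distance in kb from the outermost annotated 5′ end. Grey lines are genes, some of which run past the right edge, black ticks are annotated starts, and peaks up to 50 kb from a gene are drawn. Zfp683 has a KO peak at its 3′ end with no WT peak beside it, and WT peaks without a KO peak lie near Tbx21, Irf2 and Irf8.

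Zfp683 stood apart from the other 9 genes. It encodes Hobit, a homologue of Blimp-1 known in mice for its role in tissue-resident lymphocytes. RefSeq places the gene on chromosome 4 from 134051195 to 134058941 and classes it as a pseudogene. The peak lists give an Ensembl feature without a symbol there, ENSMUSG00000049410 on the plus strand from 134053838 to 134058996, which lies for 98.9% of its length in the RefSeq gene. No H3K4me3 peak was called within 1 kb of either start in KO or in WT. In KO, however, a peak from 134057006 to 134059434 covered the 3′ end of the gene with 187 tags over 2429 bp, a score of 133 and an FDR of 2.23%. No WT peak overlapped it.

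By summed tags, the KO peak over Zfp683 was strong for a peak called in KO alone. Such peaks made up 3.58% of the KO list, and of those 396 peaks 5 had 187 tags or more, this one included. The Zfp683 peak held 77.0 tags per kb, against 298.8 over the whole KO list. Its fold enrichment was 5.3, against a median of 18.4 over all KO peaks. Across all genes, 0.652% had a peak inside, beyond 1 kb of a start, that was called in KO alone. The peak ended 1297 bp before the annotated 5′ end of the next gene, Crybg2, and its summit was nearer to that 5′ end (1.95 kb) than to either start of Zfp683. Which of the genes it belongs to was not tested. Reads outside called peaks are not in the lists, so the level in WT is unknown, and the weakest WT peak anywhere had 17 tags.

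Of the interferon regulatory factors, Irf2 did not differ from the median gene beyond counting error, and Irf8 was lower in KO relative to that gene. Irf2, which mouse NK cells need to mature, lies on chromosome 8 from 46739745 to 46847458 (plus strand). Its TSS peak held 2785 tags over 5267 bp in KO and 2240 tags over 5771 bp in WT, a ratio of 0.05 (-0.03 to 0.13). Irf8 (chromosome 8, 120736358 to 120756694, plus strand), known in myeloid and B cell development and in NK cell responses to virus, had the widest domain of the set. It held 2497 tags over 7844 bp in KO and 2476 tags over 9036 bp in WT, percentile 99.5 of width in KO and 99.6 in WT. The KO domain ended 1093 bp earlier on the downstream side. The ratio of Irf8 was -0.25 (-0.33 to -0.17) and -0.10 per kb. At their starts, the 8 B cell markers were at 0 in both libraries, and the 8 myeloid markers were at 0 but for Cd14 in WT.

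Bach2 and Foxo1, which restrain maturation, were both lower in KO relative to the median gene. Bach2 (chromosome 4, 32238413 to 32586109, plus strand) had 1132 tags over 2929 bp in KO and 1191 tags over 2623 bp in WT at its outer 5′ end. It was the only gene of the set with fewer tags in KO before centring. Its ratio of -0.34 (-0.45 to -0.22) was the lowest of the set, and it was -0.55 per kb, where the middle 95% of genes ran from -0.70 to 0.45. A second Bach2 peak, 9.64 kb into the gene in KO and 8.96 kb in WT, held 309 tags over 3419 bp in KO and 382 tags over 5251 bp in WT (-0.57, interval -0.79 to -0.35). Per kb that second peak came to -0.01. The RefSeq promoter inside the gene, printed above, was under no peak in KO or WT.

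Foxo1 (chromosome 3, 52268337 to 52350109, plus strand) had a single peak. It held 2534 tags over 3913 bp in KO and 2392 tags over 4085 bp in WT. At 647.6 tags per kb in KO and 585.6 in WT it was nearly as dense as Zeb1. Its ratio was -0.18 (-0.26 to -0.10), and -0.18 per kb.

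Read as a set, the genes went both ways by small amounts. None of the 9 marked genes had a ratio above 1 or below -1, a size reached upward by 0.125% and downward by 1.4% of the 10421 genes marked in both. Per kb of peak none was beyond 1 in size either, against 0.0096% of genes upward and 0.701% downward. The counting interval lay above 0 at 2 of them (Tbx21 and Zeb2), against 19.4% of genes, and below 0 at 5 (Zeb1, Prdm1, Irf8, Bach2 and Foxo1), against 22.6%. It spanned 0 at Eomes and Irf2. Among the 1692 genes with at least as many tags as the weakest of the 9, the shares were 16% above and 31.6% below. The median of the 9 was -0.18 by tags and 0.03 per kb, with 0 for all genes by construction. It was 0.0016 with the outermost 5′ ends alone, a choice made after the data were seen. A direction for the set as a whole thus depended on the measure.

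**Figure D3:**
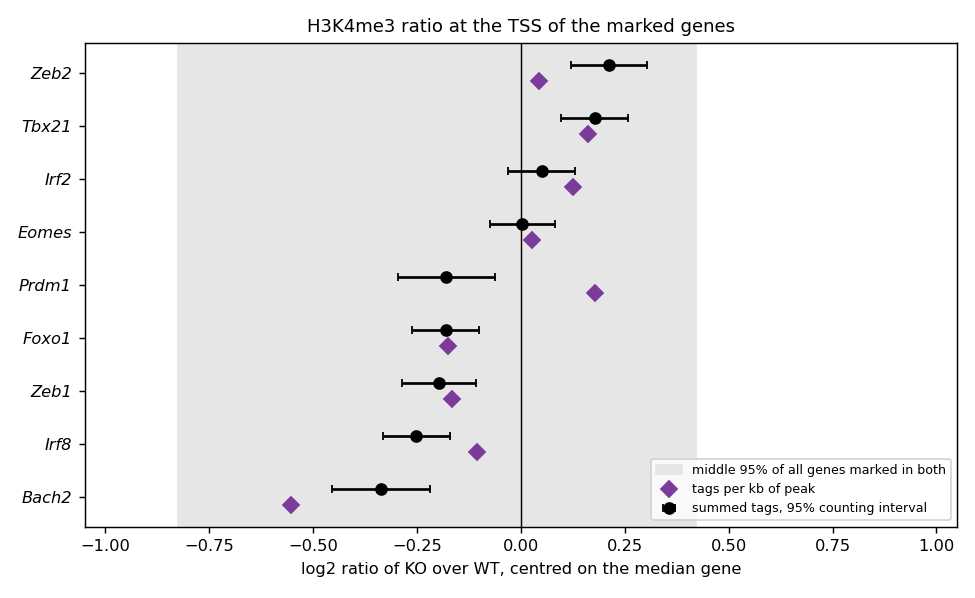
Log2 ratio of KO over WT tags at the TSS for the 9 marked genes, centred on the median gene. Circles are summed tags with their 95% counting interval, diamonds are tags per kb of peak, and the grey band holds the middle 95% of genes marked in both genotypes. All 9 circles and diamonds lie in the band, from -0.34 at Bach2 to 0.21 at Zeb2 by tags, and Prdm1 changes side between the measures.

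Width set the genes apart from a typical promoter in each library. In KO 7 of the 9 marked genes were in the widest 10% of marked genes, and in WT again 7, against 9.98% and 10% of all marked genes. The exceptions were Zeb1 (percentile 82.5 in KO, 84.0 in WT) and Bach2 (76.1 in KO, 65.5 in WT). Such width was not particular to these 9 genes. Of the other NK cell transcription factors read below, 11 of 21 marked genes in KO and 12 of 23 in WT were in the widest 10%. So were 6 of the 8 NK cell markers in KO and 8 of 8 in WT. The tags of Prdm1 were thin for its width. It had 206.9 tags per kb in KO and 146.3 in WT, percentile 25 in KO and 27.6 in WT, while Zeb1 and Foxo1 were at 99.6 or above. The TSS peaks were narrower in KO at 7 of the 9 genes, with Zeb2 and Bach2 as exceptions, and 65.1% of all genes marked in both were narrower in KO, so this count is near that of other genes.

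**Figure D4:**
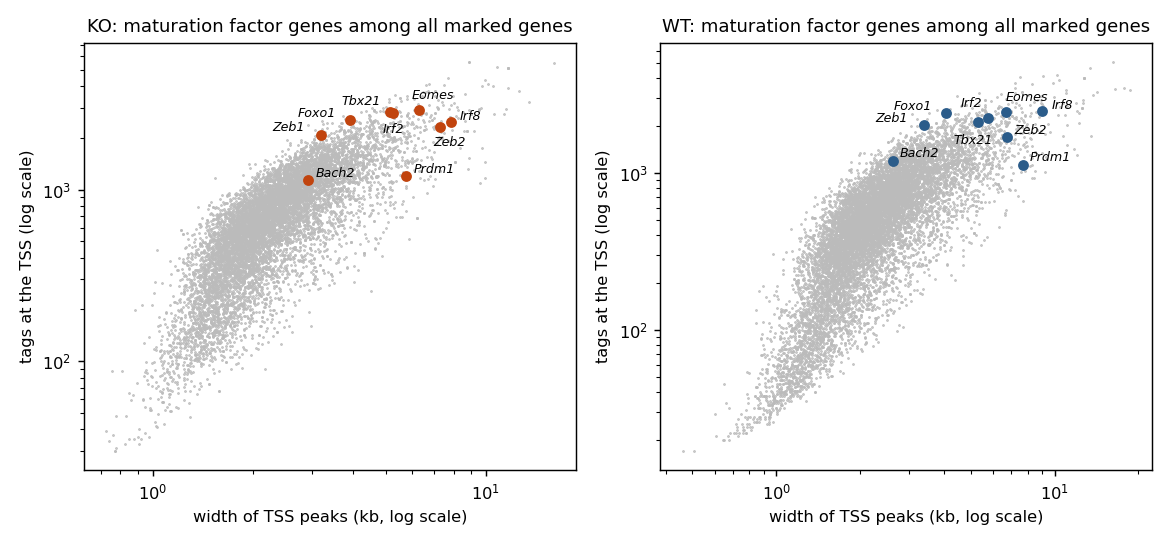
Tags at the TSS against the width of the TSS peaks in kb, both on log scales, for KO (left) and WT (right). Grey points are all marked protein-coding genes and coloured points the 9 marked maturation factors. Most of the 9 lie at the upper right, with Bach2 nearer the middle and Prdm1 at the lower edge for its width.

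Inside the genes, beyond 1 kb of any start, 4 peaks were called in KO and 4 in WT. They lay in Zeb1, Prdm1 and Bach2 in both genotypes, in Zfp683 in KO and in Eomes in WT. Of all genes 4.94% had such a peak in KO and 7.63% in WT, and of genes of 100 kb or more, such as Zeb1 and Bach2, 13.1% in KO and 20.4% in WT. The Eomes peak is a matter of its edge. In WT it began inside the gene's end and held 563 tags over 4661 bp, and in KO it began 96 bp past the end and held 440 tags over 3545 bp. Its ratio was -0.62 (-0.80 to -0.44), and -0.28 per kb, while the TSS of Eomes was at the median.

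Some peaks away from any start were called in 1 genotype alone. Counting those in or within 50 kb of the 10 genes, 7 were called in KO and 12 in WT. Of the 7 KO peaks 1 (14.3%), that over Zfp683, had no WT peak, against 23% of all KO peaks over 1 kb from a start. Of the 12 WT peaks 6 (50%) had no KO peak, against 59% of all such WT peaks. The 6 held 51 to 201 tags and lay in pairs near 3 genes. Those of Tbx21 lay 11.2 and 27.7 kb upstream with 87 and 201 tags, and the summit of the stronger one was nearer to the start of Tbkbp1 (3.56 kb) than to that of Tbx21. Those of Irf8 lay 10.5 and 18.2 kb upstream with 84 and 57 tags, and those of Irf2 lay 4.94 and 12.3 kb beyond its 3′ end with 51 and 61 tags. A peak 44.5 kb beyond Irf8 was called in both, with 223 tags in KO and 251 in WT.

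Tcf1 peaks were then looked for near these genes. The KO list shows what the antibody pulls down without its target. The median FDR of a peak was 96.9% in KO and 26.6% in WT. Whether the WT peaks are sites of Tcf1 was not tested. Within 50 kb, 0 of the 10 had a KO Tcf1 peak and 3 had a WT Tcf1 peak, against 20.7% and 4.41% of all genes. Of genes at least as long as Tbx21, the shortest of the 3, 25.4% had a KO peak and 5.82% a WT peak. Of genes of 100 kb or more, such as Zeb2, 44.5% had a KO peak and 10.1% a WT peak. Scores are those of the authors' peak caller, -10 times the log10 of its p-value. The Zeb2 peak (chromosome 2, 45045457 to 45045966) had 31 tags, a score of 80.1 and an FDR of 11.7%. It ranked 162 by score and 260 by tags among the 866 WT peaks and lay inside the gene, with its summit 64.5 kb downstream of the nearest start.

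The Prdm1 peak (chromosome 10, 44483096 to 44483608) had 37 tags, a score of 52.5 and an FDR of 27.8%. It lay between the starts of the gene, 24.6 kb upstream of the inner one, and ranked 691 by score and 205 by tags. The Tbx21 peak (chromosome 11, 97079791 to 97080268) had 25 tags, a score of 56.7 and an FDR of 27.2%, and ranked 478 by score and 362 by tags. The median WT peak had 23 tags. It lay between genes, 17.7 kb beyond the 3′ end of Tbx21, and the nearest start to its summit was that of Osbpl7, 29.2 kb away, against 35.3 kb to the start of Tbx21. With a minimum score of 100, which 98 of the 866 WT peaks reached, the count was 0 in place of 3. None of the 3 overlapped an H3K4me3 peak in KO or WT, or a KO Tcf1 peak. No sequence of these peaks was used here, so their motifs were not searched.

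At the other 7 genes the nearest WT Tcf1 peak was far off. The distances ran from 736.1 kb at Irf8 to 4196 kb at Eomes, and the median over all genes was 1090 kb. The nearest KO peaks lay 94.3 kb from Zeb1, with 18 tags and an FDR of 100%, to 1499 kb from Tbx21. Zeb2 and Tbx21, with a WT Tcf1 peak in or near the gene, had the highest H3K4me3 ratios of the set by tags, and Prdm1, with the third, had a ratio below 0 by tags. Per kb the order was another, with Prdm1 at 0.18, Tbx21 at 0.16, Irf2 at 0.12 and Zeb2 at 0.04. With 3 such genes this is a description alone.

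Other transcription factors of NK and innate lymphoid cells were read on the same scale. Of 25, 21 were marked in KO and 23 in WT, with Gata2 and Id3, named after their values were seen, marked in WT alone. None had a ratio beyond 1 in size, the counting interval lay above 0 at 2 and below 0 at 7 of the 21 marked in both, and their median was -0.04. The most tags, summed over both libraries, were at Runx3, which acts in NK and T cell differentiation (4041 in KO, 3367 in WT), Id2, which blocks E proteins (4031 in KO, 3038 in WT), and Nfil3, needed early in NK development (2642 in KO, 2888 in WT). Their ratios were -0.00063 for Runx3, 0.14 for Id2 and -0.39 for Nfil3. Per kb they were 0.01 for Runx3, 0.12 for Id2 and -0.05 for Nfil3. Of the 25, 3 lay within 50 kb of a KO Tcf1 peak and 0 of a WT peak.

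Genes that mark stages of maturation, or that the factors are known to control, were also read. Of 20, 12 were marked in KO and 11 in WT, shares near those of all genes given above. Those at 0 in both included S1pr5, through which T-bet and Zeb2 act on exit of NK cells in mice, and the maturity markers Itgam and Cx3cr1. The most tags, again summed, were at Il2rb, a subunit of the IL-2 and IL-15 receptors (3738 in KO, 3442 in WT, ratio -0.14), Prf1, which encodes perforin (1499 in KO, 1516 in WT, -0.28), and Gzmb, a granzyme (1842 in KO, 1022 in WT, 0.59). Per kb the ratios were 0.30 at Il2rb, -0.16 at Prf1 and 0.49 at Gzmb, so the direction at Il2rb depended on the measure. The following were named after their values were seen. Klrg1, a receptor of mature cells, was marked in KO alone with 158 tags, as were 0.17% of all genes. Cd27, a receptor of less mature cells, had 118 tags in KO and 213 in WT, and its ratio of -1.12 was the only one of the list beyond 1 in size, though it was -0.61 per kb. Other genes of the list went both ways. Itga1 had 920 tags in KO and 612 in WT and came to 0.32 (0.18 to 0.47), or 0.33 per kb. Kit came to -0.61 (-0.81 to -0.41) and Cxcr4 to -0.96 (-1.19 to -0.72), or -0.58 and -0.81 per kb. Spn (CD43), a marker of mature cells, came to 0.07 (-0.05 to 0.19), and Cxcr3, found on less mature cells, came to -0.25 (-0.57 to 0.08). Over the 11 genes of this list marked in both, the median ratio was -0.14. The counting interval lay above 0 at 2 of the 11 (Gzmb and Itga1) and below 0 at 5.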

How the data were processed

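For each peak, the deposited lists give a tag count without scaling, a score of -10 times the log10 of the p-value, a fold enrichment (a ratio over the background of the peak caller) and an FDR in percent, per the file headers. Tools listed in the submitters' processing notes are MACS 1.4 and Bowtie2 2.1.0, and the listed builds are GRCm38, GRCh37 and mm10. How peaks were called, and against which control, is not given in the sources used here. Cross-linking took 10 minutes in 1% formaldehyde, per the labels. Input libraries were not analysed here.

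Duplicate rows of a peak were dropped, and starts were shifted to count from 1. Gene features listed with the peaks lay within 600 bp of RefSeq GRCm38.p6 at 9 of the 10 genes, so positions were read in that build. Starts came from RefSeq and from these features. Genes of unknown strand were left out where H3K4me3 lay near an end (123), and 1653 others of unknown strand counted as unmarked. The strand of 2595 genes came from features listed with peaks, so shares of marked genes are approximate.

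The genes and lists were chosen with earlier results of these data known. All 10 genes are named, and up to 3 of each other list, those with most tags over both libraries. Other genes were named after their values were seen, or as defining markers at 0. Because tags summed over a peak depend on how wide it was called, each ratio was also taken per kb. Counting intervals were tested on simulated Poisson counts, which hold no variation between libraries beyond counting. Searches for peaks that overlap a gene were checked against a direct search of the WT H3K4me3 peaks. Alternatives were TSS windows of 0 and 2.5 kb, tags per kb, merged regions, minimum scores of 100, a maximum FDR of 1%, lists of equal length, total scaling, autosomes alone, distances of 10 and 100 kb and stricter overlaps. The software was Python 3.11.15 with numpy 2.4.6, pandas 2.3.3 and matplotlib 3.10.9.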

Additional observations from a re-analysis of the deposited data

How the results depend on the processing

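No paired analysis was possible because each group held 1 library, and none could be left out. Of 90 ratios of single genes under alternatives, 79 stayed within the counting interval of the reported value, 11 did not, and 0 went beyond 1 in size. Counts of marked genes, and of genes with a ratio beyond 1, stayed within 1.5 times their values under the alternatives run. The median ratio of the set, -0.18, was 0.026 per kb of peak, -0.094 when scaled by total tags, and 0.0016 with the outermost 5′ ends alone. Those ends leave out the main peaks of Prdm1 and Zeb2. The ratio of Prdm1 became 0.23 and that of Zeb2 fell from 0.21 to 0.0044, so Zeb2 was no longer the highest. KO peaks inside the genes, 4 in all, were 2 with scores of at least 100 and 1 with an FDR of at most 1%. WT peaks inside the genes, also 4, were 3 and 4 under the same limits. The FDR limit was met by 9692 of the 11074 KO H3K4me3 peaks and by 13463 of the 13771 WT peaks. The highest FDR was 29.5% in KO and 1.39% in WT. Genes near a WT Tcf1 peak, 3 within 50 kb, were 0 with scores of at least 100, a score that 98 of the 866 WT peaks reached. The count was also 0 with an FDR of at most 1%, which was fixed in advance because no Tcf1 peak of either list met it. Within 100 kb, 1 gene had a KO Tcf1 peak, against 0 within 50 kb. Peaks below the authors' threshold are not in the lists, so a missing peak is no measure of a level.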

Other observations

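Promoters of neighbouring genes lay within 50 kb of 4 of the factors. Upstream of Tbx21, the promoter of Tbkbp1, which encodes a protein that binds the kinase TBK1, had 1044 tags over 2519 bp in KO and 1278 tags over 3049 bp in WT, a ratio of -0.56 (-0.67 to -0.44), or -0.34 per kb. Tbx21 itself came to 0.18, and the 2 WT peaks without a KO peak lay between its start and the promoter peak of Tbkbp1. Whether either lay inside Tbkbp1 was not tested. On the other side of Tbx21, the promoter of Osbpl7 had 497 tags in KO and 430 in WT (-0.05, interval -0.24 to 0.13). Beyond Bach2, the promoter of Casp8ap2 had 678 tags in KO and 478 in WT (0.24, interval 0.07 to 0.41), while Bach2 came to -0.34. Near Zfp683, the promoter of Cd52, which encodes a surface glycoprotein of lymphocytes, had 1160 tags in KO and 797 in WT (0.28, interval 0.15 to 0.41), while Dhdds came to 0.06 (-0.23 to 0.35) and Ubxn11 to -0.05 (-0.35 to 0.25). Beyond Eomes, Golga4 had 1063 tags in KO and 866 in WT (0.03, interval -0.10 to 0.16), and Eomes came to 0.0037. These genes were named after their values were seen.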
